A study of Mus musculus with 32 samples.

Results

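Intracellular serpins and the Ctla2 genes encode the protease inhibitors with which cytotoxic lymphocytes meet their own granzymes and cathepsins, and 7 such mouse genes are described here: Serpina3f, Serpina3g, Serpinb6a, Serpinb6b, Serpinb9, Ctla2a and Ctla2b. They were chosen by name, with earlier results of these data known, and all 7 were among the 16741 genes of the RNA table. The series studied acute graft-versus-host disease (GVHD) in mice, with C57Bl6 donors and Balb/c hosts that differ at the major histocompatibility genes. Bulk RNA was sequenced from sorted donor lymphocytes of spleen and lymph nodes, in 31 libraries labelled as conventional CD4, conventional CD8 or regulatory T cells (Treg). The conventional cells, of either type, were taken ahead of the transplant (day 0, 2 libraries per type), or from hosts given a syngeneic graft (3 per type), an allogeneic graft (4 per type), or an allogeneic graft together with Treg on day 0 (4 per type, called Treg-treated). Treg themselves gave 2 libraries at day 0 and 3 from Treg-treated hosts. The time after transplant is day 6 by the sample titles and 8 days by the text on the design, and the strain of the syngeneic hosts and the sex and age of the mice are not given in the sources used here. Values are counts scaled between libraries by the authors, called normalised counts below, and they are not corrected for gene length, so levels are compared between groups and not between genes.

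A serpin presents a reactive loop as bait, is cut by the protease, and traps it in an inactive complex, so each serpin molecule is used up as it works. Serpinb9, also called Spi6, inhibits granzyme B and protects killer lymphocytes from granzyme that leaks out of their granules. Serpinb6b inhibits mouse granzyme A, and Serpinb6a is a broadly expressed relative that inhibits trypsin-like proteases and cathepsin G. Serpina3g, also called Spi2A, is a cytosolic inhibitor of lysosomal cathepsins, and Serpina3f is its close neighbour in the Serpina3 cluster. Ctla2a and Ctla2b resemble the propeptide of cathepsin L and inhibit cathepsins of that kind without being serpins. The genes are thus a mix of granzyme and cathepsin inhibitors.

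The genes lie in 3 clusters, with coordinates from RefSeq on GRCm38.p6, the build family named in the submitters' processing notes. Serpina3f (chr12:104214544-104221129) and Serpina3g (chr12:104236147-104241939) are 15017 bases apart. Serpinb6b (chr13:32956811-32979067) and Serpinb9 (chr13:32997061-33017955) are 17993 bases apart, with Serpinb6a (chr13:33917918-34002794) on the same chromosome. Ctla2a (chr13:60934155-60936625) and Ctla2b (chr13:60895351-60897934) are 36220 bases apart. Stretches around the start sites of the Serpina3 pair, which reach 50 bases past the start in Serpina3g and end before it in Serpina3f, are shown because the genes moved together and their promoters resemble each other: 169 bases are identical in an alignment of 203 with 213 bases, an identity of 78.97% with 12 gap positions. Both are on the plus strand, and capitals mark the letters TTCNNNGAA, the core of sites for STAT factors.
Serpina3f: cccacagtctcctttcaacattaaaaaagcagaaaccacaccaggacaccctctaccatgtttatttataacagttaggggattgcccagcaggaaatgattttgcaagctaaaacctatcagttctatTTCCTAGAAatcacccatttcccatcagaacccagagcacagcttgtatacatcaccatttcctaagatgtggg
Serpina3g: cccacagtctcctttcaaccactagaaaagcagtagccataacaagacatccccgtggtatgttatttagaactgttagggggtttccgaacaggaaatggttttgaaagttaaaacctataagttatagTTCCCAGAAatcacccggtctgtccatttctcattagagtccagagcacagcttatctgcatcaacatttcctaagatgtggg
The Serpina3f stretch is chr12:104214294-104214496 and the Serpina3g stretch chr12:104235984-104236196. Counted from the start site, the match begins at position -121 in Serpina3f and at -33 in Serpina3g, and 8.294% of all 32817 RefSeq windows of 300 bases hold one.

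The Ctla2 pair is shown for its near identity, with 256 identical bases and an identity of 89.51% over 286 against 278 bases. Capitals mark the same STAT letters and TGANTCA, the core of AP-1 sites, which is in 7.813% of all windows. Both genes are on the minus strand, and the stretches are chr13:60936576-60936861 for Ctla2a and chr13:60897420-60897697 for Ctla2b. The Ctla2b stretch lies inside the gene span given above, so its start site is not at the end of that span.
Ctla2a: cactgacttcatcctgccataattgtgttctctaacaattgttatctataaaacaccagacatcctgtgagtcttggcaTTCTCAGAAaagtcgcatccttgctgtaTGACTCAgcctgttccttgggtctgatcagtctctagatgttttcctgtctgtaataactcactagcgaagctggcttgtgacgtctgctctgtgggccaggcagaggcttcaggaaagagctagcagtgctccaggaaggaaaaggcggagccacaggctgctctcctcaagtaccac
Ctla2b: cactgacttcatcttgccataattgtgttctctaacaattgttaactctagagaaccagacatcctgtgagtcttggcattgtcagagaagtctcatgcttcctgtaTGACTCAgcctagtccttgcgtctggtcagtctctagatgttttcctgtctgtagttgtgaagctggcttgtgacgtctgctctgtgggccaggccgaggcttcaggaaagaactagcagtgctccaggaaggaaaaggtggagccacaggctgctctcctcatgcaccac
The AP-1 letters stand in both, from position -129 in Ctla2a and -143 in Ctla2b. Of these 2 windows only that of Ctla2a holds the STAT letters, from position -157. These are identities of the start-site stretches, and transcripts were not compared. Where transcripts of close relatives are alike, kallisto, the quantifier named in the processing notes, has to divide reads between them, so the split of values within the Ctla2 and Serpina3 pairs is to be read with that limit.

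The clade B serpins differ more in this region, and 110 bases around each start site are shown to contrast Serpinb9 and Serpinb6b, which changed together, with Serpinb6a, which changed less. Capitals mark TTTCNNTTTC, the core of interferon-stimulated response elements (in 3.431% of all windows), and the STAT letters.
Serpinb9: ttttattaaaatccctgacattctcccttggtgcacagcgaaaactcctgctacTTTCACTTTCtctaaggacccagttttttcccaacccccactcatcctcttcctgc
Serpinb6b: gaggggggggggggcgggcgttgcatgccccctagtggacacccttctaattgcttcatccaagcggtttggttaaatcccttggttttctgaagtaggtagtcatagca
Serpinb6a: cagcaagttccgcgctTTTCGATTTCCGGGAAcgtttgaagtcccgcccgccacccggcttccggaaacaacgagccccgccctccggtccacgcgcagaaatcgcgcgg
The stretches are chr13:33004441-33004550 and chr13:32965161-32965270 on the plus strand for Serpinb9 and Serpinb6b, and chr13:34002785-34002894 on the minus strand for Serpinb6a. Serpinb9 holds the interferon letters from position -46. Serpinb6a holds them from -84, overlapping a STAT match from -77, and another STAT match begins at position 20, past the printed stretch. The window of a second Serpinb6a start site (chr13:33936034-33936333) holds none of the 3 motifs, so what is found depends on the start site. No match to any of the 3 motifs is in the Serpinb6b window. The Serpinb6b and Serpinb9 stretches lie inside the gene spans given above, which begin at 32956811 and 32997061. Their start sites are thus not at the ends of those spans, and other start sites of these genes were not searched. All motifs were searched on both strands, the letters were chosen after the sequences were seen, and binding was not measured.

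Before the results, 1 library has to be set apart. The CD4 syngeneic replicate JL019-2 had a Cd4 value of 1659 against 14576 and 16526 in the other syngeneic CD4 libraries, a Cd8a value of 1956, and a sum over 10 myeloid marker genes of 3657200 against 81033 and 89980. Values without it stand beside the main results that use this group. Myeloid marker sums also moved with the arms. In CD4 cells they were 1256 and 2044 at day 0, with 1 of the 10 genes at 0, then 5788 to 11517 in allogeneic and 24270 to 89087 in Treg-treated libraries, with all 10 above 0. Marker by marker, 2 of the 10 were called higher and 1 lower in CD4 cells with Treg treatment (median 0.54). Against syngeneic CD4 cells without JL019-2, 6 were called lower and 0 higher in allogeneic cells (median -2.37). With JL019-2, Adgre1, Elane and Itgam were called lower there too. In Treg-treated against syngeneic CD4 cells without JL019-2, 4 were lower and 1 higher (median -1.45). In CD8 cells the sums were 6191 and 6475 at day 0, 38888 to 61968 in syngeneic, 6766 to 10988 in allogeneic and 11869 to 32181 in Treg-treated libraries, while 4 markers were called higher and 3 lower between day 0 and allogeneic cells (median -0.13). In Treg the sums were 2502 and 3326 at day 0 and 2156 to 7383 later. Sums over 5 NK markers in CD8 cells were 1561 and 1868 at day 0, 5894 to 6157 in syngeneic and 1503 to 1889 in allogeneic libraries. In the allogeneic group 1 of the 5 was at 0. The part of these cells in the results was not tested. Cd4 was at least 8722 in the other CD4 libraries and at most 92.8 in CD8 libraries, whose Cd8a values were at least 14160. Foxp3, the defining transcription factor of Treg, was 198 and 442 in the day 0 libraries labelled Treg and 1145 and 978 in those labelled CD4, so Foxp3 does not set these groups apart as labelled. In Treg-treated recipients it was 265 to 293 in the Treg libraries and 127 to 178 in the CD4 libraries, while CD4 and CD8 libraries of the allogeneic arm had 337 to 579 and 103 to 453. Names of replicates begin with JL019 or JL027, and what these stand for is not given in the sources used here. The labels do not say whether replicates are separate animals, so p-values measure the spread between these libraries, and in bulk samples fewer cells of a kind and less RNA per cell cannot be told apart.

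The granzyme inhibitors Serpinb9 and Serpinb6b were low before transplantation and at their highest in CD8 cells of allogeneic hosts, with or without Treg treatment. In CD4 cells Serpinb9 had normalised counts of 759 and 676 at day 0, 1967, 1025 and 3095 in the 3 syngeneic libraries, and 24089, 20176, 18650 and 17263 in the 4 allogeneic libraries. In CD8 cells it had 998 and 1410 at day 0, 3617, 3201 and 4492 in syngeneic recipients, and 55193, 36090, 31067 and 32676 in allogeneic recipients. In both cell types the 3 conditions did not overlap, and every allogeneic library was above every syngeneic one. Serpinb6b showed the same order at other levels. Its CD4 values were 257 and 292 at day 0, 640, 562 and 1044 in syngeneic, and 11937, 10332, 11087 and 9769 in allogeneic libraries. Its CD8 values were 449 and 531, then 1417, 1140 and 1773, then 22395, 15988, 15264 and 14817. Again no library crossed into the range of another of these conditions.

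**Figure D1:**
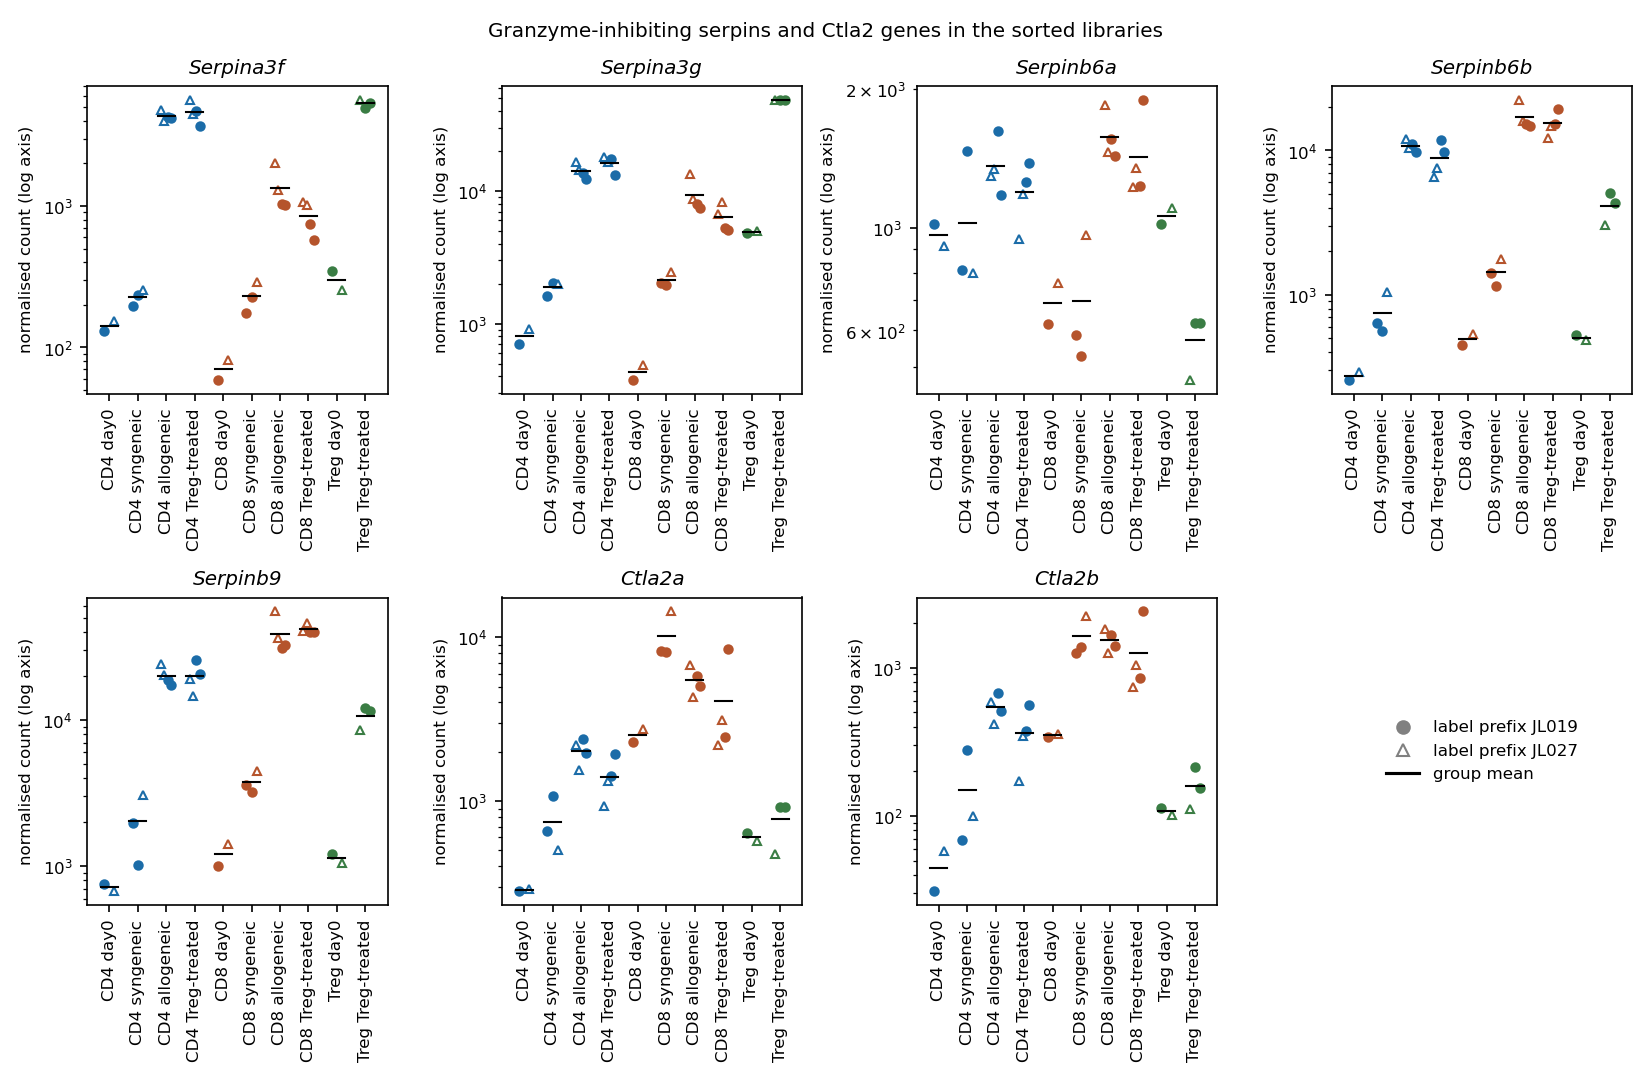
Normalised counts (log axis) of the 7 genes in each library of the 10 groups (filled circles, label prefix JL019; open triangles, JL027; lines, group means). Serpinb9 and Serpinb6b rise in steps from day 0 to syngeneic to allogeneic cells, Serpina3g is highest in the 3 later Treg libraries (48085 to 48512), and the Ctla2 genes are higher in CD8 than in CD4 libraries of the same arm.

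The comparison of allogeneic with syngeneic recipients asks what the foreign host adds to the transfer itself. limma was fitted to log2(normalised count + 1) of all 31 libraries, and a gene was called at a Benjamini-Hochberg adjusted p under 0.05 over all 16741 genes. Log2 changes are on this scale, which understates changes of low genes. In CD4 cells 6 of the 7 genes rose, where 14.6% of all genes were called in either direction. The median log2 change of the 7 was 2.92, beside -0.0014 over all genes. Serpinb9 rose by a log2 change of 3.43 ± 0.26 (SE; 4 against 3 libraries; adjusted p = 3.3e-10, limma), which is 10.8-fold. Serpinb6b rose by 3.89 ± 0.23 (adjusted p = 2.7e-12, limma), or 14.9-fold. Serpinb6a had 1297, 1340, 1622 and 1179 in allogeneic and 810, 1467 and 801 in syngeneic libraries, and its log2 change of 0.46 ± 0.23 was not called (adjusted p = 0.20, limma). The 1467 is the value of JL019-2, and without that library all 7 genes were called, beside 10.9% of all genes, Serpinb6a with a log2 change of 0.74 (adjusted p = 0.032, limma), Serpinb9 with 3.01 and Serpinb6b with 3.71. Serpinb6a was also called, at 0.55, with the mean level of each library as a covariate, an alternative chosen after seeing the data and called the level covariate from here on.

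In CD8 cells 5 of the 7 genes rose in allogeneic over syngeneic recipients, namely all 5 serpins, where 21.1% of all genes were called. Serpinb6b rose by a log2 change of 3.57 ± 0.23 (adjusted p = 6.0e-12, limma), or 11.9-fold. Serpinb9 rose by 3.34 ± 0.26 (adjusted p = 2.5e-10, limma), or 10.1-fold. Serpinb6a was 1842, 1458, 1561 and 1430 in allogeneic against 586, 528 and 965 in syngeneic CD8 libraries, without overlap. Its log2 change was 1.23 ± 0.23 (adjusted p = 1.9e-04, limma), the smallest of the 5 serpins here. All called changes of the 7 genes in all 20 comparisons, 85 of 140, had the same sign in both label prefixes.

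Serpina3g and Serpina3f, the cathepsin inhibitor and its neighbour, also rose in allogeneic hosts. Serpina3g had 1606, 2028 and 1999 in CD4 syngeneic libraries and 16526, 14349, 13732 and 12274 in CD4 allogeneic libraries. Serpina3f had 198, 233 and 255 in the former and 4763, 3969, 4262 and 4214 in the latter. The groups were far apart for both genes, with replicates close together. The log2 changes were 2.92 ± 0.20 for Serpina3g (adjusted p = 3.5e-11, limma) and 4.23 ± 0.24 for Serpina3f (adjusted p = 1.1e-12, limma), which is 7.57-fold and 18.8-fold. Without JL019-2 they were 2.98 and 4.25.

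In CD8 cells the rise of this pair was smaller. Serpina3g went from 2013, 1956 and 2433 in syngeneic to 13321, 8709, 7932 and 7495 in allogeneic libraries, and Serpina3f from 176, 227 and 292 to 2005, 1288, 1029 and 1025. These groups did not overlap, and in both genes the allogeneic replicate JL027-1 was the highest. The log2 changes were 2.10 ± 0.20 (Serpina3g, adjusted p = 5.5e-09, limma) and 2.50 ± 0.24 (Serpina3f, adjusted p = 6.7e-09, limma). The difference between the CD8 and the CD4 response was itself tested, and 3 of the 7 genes passed, all with a lower response in CD8 cells, where 4.65% of all genes passed. For Serpina3f the CD8 response was lower by a log2 difference of -1.73 ± 0.34 (adjusted p = 0.0019, limma). For Serpina3g the difference of -0.82 ± 0.28 was not called (adjusted p = 0.098, limma), though it was without CD8 allogeneic replicate JL027-1 (-1.0, adjusted p = 0.022), with a replicate block by label prefix (adjusted p = 0.033) or by the replicate number that cell types share (adjusted p = 0.041), and with the level covariate (adjusted p = 0.046, limma). For Serpinb9 it was -0.10 ± 0.37 and for Serpinb6b -0.33 ± 0.33, neither called. Without JL019-2 these differences were -1.75 for Serpina3f, -0.88 for Serpina3g, -0.15 for Serpinb6b and, with the sign turned, 0.33 for Serpinb9.

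The Ctla2 genes responded to the foreign host differently in the 2 cell types. In CD4 cells Ctla2a was 657, 1071 and 503 in syngeneic and 2191, 1552, 2398 and 1972 in allogeneic libraries, and Ctla2b was 68.7, 278 and 99.3 against 585, 416, 669 and 512. The highest syngeneic value of each gene is again that of JL019-2, and the groups did not overlap with it included. Ctla2a rose by a log2 change of 1.5 ± 0.35 (adjusted p = 0.0034, limma) and Ctla2b by 2.11 ± 0.41 (adjusted p = 6.6e-04, limma), and without JL019-2 by 1.80 and 2.69. In CD8 cells Ctla2a was 8177, 8117 and 14338 in syngeneic and 6782, 4315, 5802 and 5044 in allogeneic libraries. All syngeneic values were above all allogeneic ones, but the log2 change of -0.86 ± 0.35 was not called (adjusted p = 0.082, limma). It was called when only the 2 groups were fitted (adjusted p = 0.032, limma) and with the level covariate (-0.68, adjusted p = 0.013, limma). Ctla2b overlapped, with 1261, 1378 and 2236 against 1830, 1262, 1656 and 1404 and a log2 change of -0.05 ± 0.41. The CD8 response was lower than the CD4 response by a log2 difference of -2.36 ± 0.50 for Ctla2a (adjusted p = 0.0041, limma) and -2.15 ± 0.59 for Ctla2b (adjusted p = 0.030, limma). Without JL019-2 these were -2.66 and -2.73. The Ctla2b call was lost when any 1 of 7 other libraries was left out: CD4 allogeneic JL027-1 or JL019-1, CD8 allogeneic JL027-2 or JL019-2, CD4 syngeneic JL019-1 or JL027, or CD8 syngeneic JL027, with log2 differences of -2.12 to -1.73 (adjusted p = 0.051 to 0.10, limma).

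**Figure D2:**
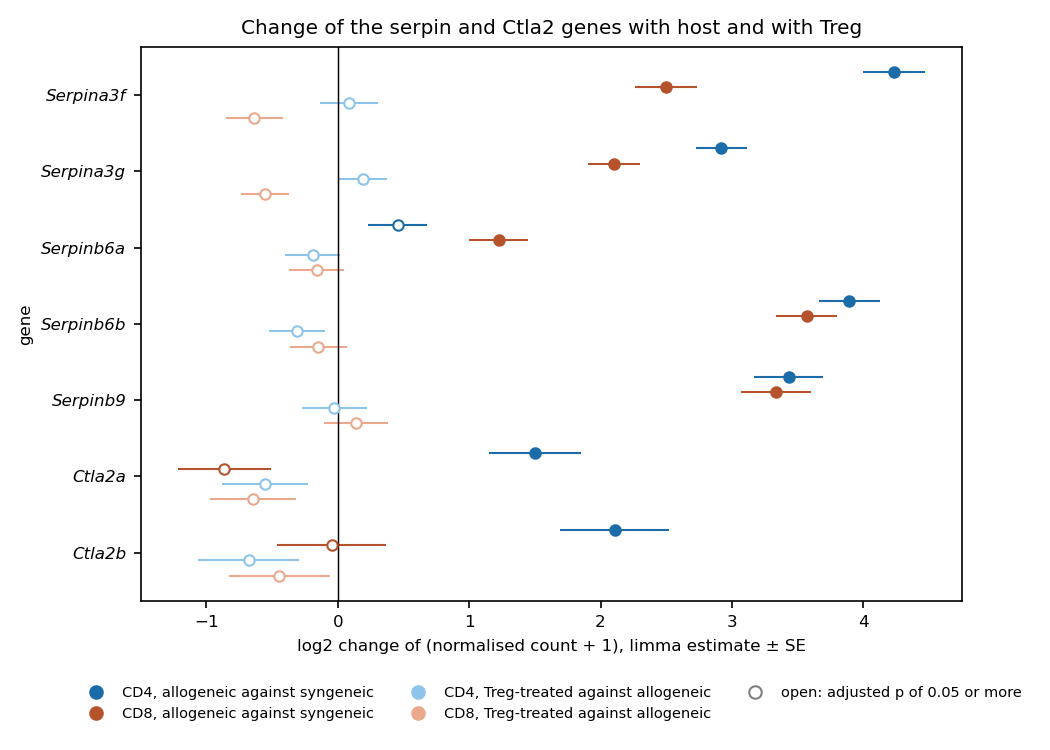
Log2 changes with their SE (limma) of each gene between allogeneic and syngeneic recipients (dark) and between Treg-treated and allogeneic recipients (light), in CD4 (blue) and CD8 cells (orange); open symbols were not called. The dark symbols lie well to the right for Serpina3f, Serpina3g, Serpinb6b and Serpinb9 in both cell types and for the Ctla2 genes in CD4 cells, and no light symbol is filled.

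Treg given with the graft are meant to restrain donor T cells, so the Treg-treated arm was set against the allogeneic arm. None of the 7 genes was called in CD4 cells, where 22.2% of all genes were called by limma, and none had an unadjusted p under 0.05. Serpinb9 was 18919, 14561, 25842 and 20492 in Treg-treated CD4 libraries and so spread around the allogeneic values given above, with a log2 change of -0.03 ± 0.24. Serpina3g, at 18082, 16537, 17335 and 13144, had a log2 change of 0.19 ± 0.18. Both groups overlapped for every one of the 7 genes. The most negative changes were those of Ctla2b (-0.68 ± 0.38, adjusted p = 0.20) and Ctla2a (-0.55 ± 0.32, adjusted p = 0.22, limma). Under quantile normalisation 1 gene was called, beside 23.3% of all genes, Serpinb6b with -0.57 (adjusted p = 0.025, limma). With the level covariate 3 were, beside 3.4% of all genes, with log2 changes of -1.16 for Ctla2a, -1.37 for Ctla2b and -0.58 for Serpinb6a.

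In CD8 cells 0.0657% of all genes were called between Treg-treated and allogeneic recipients (11 genes by limma, and 1851 at an unadjusted p under 0.05), and again none of the 7. Serpina3g was 6723, 8244, 5216 and 5088 and Serpina3f 1073, 1019, 743 and 577 in Treg-treated CD8 libraries, so that the upper values reached into the allogeneic range. They had the 2 unadjusted p-values under 0.05 among the 7 genes, with log2 changes of -0.56 ± 0.18 (unadjusted p = 0.0051, adjusted p = 0.27, limma) and -0.63 ± 0.22 (unadjusted p = 0.0076, adjusted p = 0.30, limma). Serpinb9, at 40593, 46269, 39710 and 39702, had a log2 change of 0.14 ± 0.24. Ctla2a was 2214, 3122 and 2452 in 3 of the libraries and 8431 in JL019-2, and Ctla2b was 742, 1037, 852 and 2391. With all libraries Ctla2a had a log2 change of -0.65 ± 0.32 (adjusted p = 0.46, limma). The level covariate gave 1 called gene, beside 0.299% of all genes, Ctla2a with -1.09 (adjusted p = 0.015, limma). The Treg effect was not found to differ between CD8 and CD4 cells for any of the 7, where 0.00597% of all genes, 1 gene, was called. At an unadjusted p under 0.05 it differed for 2 of the 7 and for 430 of all genes, and the 2 were Serpina3g (log2 difference -0.75 ± 0.26) and Serpina3f (-0.72 ± 0.31).

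Against syngeneic cells, the control shared with the allogeneic comparison, the Treg-treated arm was also higher in most of the serpins. In CD4 cells 5 of the 7 genes rose, where 16.7% of all genes were called. Serpina3f had a log2 change of 4.32 ± 0.24, Serpinb6b of 3.59 ± 0.23, Serpinb9 of 3.41 ± 0.26, Serpina3g of 3.11 ± 0.20 and Ctla2b of 1.43 ± 0.41 (adjusted p of 0.018 or less, limma). Without CD4 syngeneic JL019-2 they were 4.34, 3.41, 2.99, 3.17 and 2.01. The Ctla2b values of the 2 arms overlapped, and its call was lost without CD4 Treg-treated JL019-2, CD4 syngeneic JL019-1 or CD4 syngeneic JL027 (log2 changes of 1.18, 1.01 and 1.27), or when only the 2 groups were fitted (adjusted p = 0.21, limma). With the level covariate it was 0.90 and still called. Ctla2a had 0.95 ± 0.35 (adjusted p = 0.064, limma) and was called without CD4 syngeneic JL019-2 (1.24) or CD4 Treg-treated JL027-1 (1.12), and under median centring of the libraries, quantile normalisation or the prefix block (1.23, 1.04 and 0.99). In CD8 cells 6 of the 7 were called, where 18.2% of all genes were. The 5 serpins rose, from 3.47 ± 0.26 for Serpinb9 down to 1.07 ± 0.23 for Serpinb6a, and Ctla2a fell by 1.51 (SE 0.35, adjusted p = 0.0024, limma) although its JL019-2 value lay within the syngeneic range. That call was lost when only the 2 groups were fitted (adjusted p = 0.061, limma).

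Cells from transplanted animals also differed from cells before transplantation. From day 0 to the allogeneic arm, 6 of the 7 genes rose in CD4 cells, where 24% of all genes were called, and all 7 in CD8 cells, where 30.4% were. Markers of B cells moved too: of 7, 3 were called lower and 1 higher in CD4 cells and 4 lower in CD8 cells (median -3.76), and in syngeneic CD8 cells 5 were lower and 1 higher than at day 0 (median -3.12). The part of these cells was not tested. Serpinb6b had a CD4 log2 change of 5.29 ± 0.26 (39.1-fold) and a CD8 log2 change of 5.11 ± 0.26 (34.5-fold). Serpinb9 rose 27.7-fold in CD4 and 31.8-fold in CD8 cells. The smallest called change was that of Ctla2a in CD8 cells, from 2281 and 2754 to the allogeneic values above, a log2 change of 1.11 ± 0.40 (adjusted p = 0.036, limma). That call was lost without CD8 day 0 JL019 or JL027 or without CD8 allogeneic JL027-1 or JL019-1, with log2 changes of 0.97, 1.25, 1.0 and 1.08. It was also lost under median centring (1.18), quantile normalisation (0.76) and the level covariate (0.12, adjusted p = 0.75, limma). The level covariate also lowered the rises of Ctla2b (0.99) and Serpinb6a (0.55) in CD8 cells and of Ctla2a (2.06) and Ctla2b (2.79) in CD4 cells, which stayed called. The exception in CD4 cells was Serpinb6a, with 0.48 ± 0.26.

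In syngeneic hosts the serpins that rose from the same day 0 libraries had smaller log2 changes than in allogeneic hosts, but the Ctla2 genes of CD8 cells did not: Ctla2a had 1.97 ± 0.42 and Ctla2b 2.16 ± 0.50. In CD8 cells 6 of the 7 genes rose, where 24.2% of all genes were called, from 1.54 ± 0.28 for Serpinb6b to 2.30 ± 0.24 for Serpina3g, with Serpinb6a at -0.04 ± 0.27. Ctla2a rose from 2281 and 2754 to its highest group mean of the series, with values of 8117 to 14338. NK marker sums of these CD8 libraries also rose, from 1561 and 1868 to 5894 to 6157, and their part was not tested. With the level covariate Ctla2a and Ctla2b had 0.80 and 0.83 and were not called (adjusted p = 0.055 and 0.12, limma), while Serpinb6a was, at -0.80 (adjusted p = 0.0015, limma). In CD4 cells 5 of the 7 rose, where 13% of all genes were called, from 1.23 ± 0.24 for Serpina3g to 1.52 ± 0.50 for Ctla2b. Here all 10 myeloid markers (median 4.81 on the log2 scale) and 4 of 6 erythroid markers were called higher too, and their part was not tested. Without JL019-2, limma called 7.93% of all genes, 8 of the 10 myeloid markers as higher (median 3.39) and 0 of the 6 erythroid markers, 2 of which had an unadjusted p under 0.05. Without JL019-2 only the serpins Serpina3g, Serpinb6b and Serpinb9 remained called, at 1.17, 1.57 and 1.78, and Ctla2a and Ctla2b had log2 changes of 1.0 and 0.94. Ctla2a and Ctla2b also lost their calls without either CD4 day 0 library (1.28 and 1.08 without JL019, 1.32 and 1.96 without JL027), and Serpinb9 without JL027 (1.28, adjusted p = 0.067, limma). The Ctla2 calls were lost under median centring too (1.22 and 1.44) and with the level covariate (0.42 and 0.52). That covariate also turned Serpinb6a from 0.03 ± 0.27 to -0.54, which was called. When only the 2 groups were fitted, none of the 7 was called, beside 1.4% of all genes.

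CD8 cells had more Ctla2a and Ctla2b than CD4 cells in every arm. They had less Serpina3f and Serpina3g in the allogeneic and Treg-treated arms and, without a call, at day 0. Some NK markers were also called higher in CD8 cells, 2 of 5 at day 0 (median 2.85), 4 in syngeneic (median 3.17), 2 in allogeneic (median -0.17) and 1 in Treg-treated recipients (median 0.73). Their part was not tested. At day 0, Ctla2a was 2281 and 2754 in CD8 against 283 and 290 in CD4 libraries, and Ctla2b 341 and 359 against 31.1 and 58.1. These were the 2 called genes of the 7, where 3.32% of all genes were called, with log2 changes of 3.13 ± 0.46 and 3.01 ± 0.54 (adjusted p = 6.2e-05 and 7.8e-04, limma). The other 5 were not called. Of these, Serpina3f (-1.01 ± 0.31, adjusted p = 0.076, limma), Serpina3g (-0.89 ± 0.26, adjusted p = 0.054, limma) and Serpinb6a (-0.49 ± 0.30) were lower in CD8 cells. Serpinb6b (0.83 ± 0.30) and Serpinb9 (0.73 ± 0.35) were higher. Quantile normalisation and the prefix block called 4 of the 7, beside 4.25% and 3.56% of all genes. The block by shared number, the level covariate and a fit of only the 2 groups called 5, beside 3.86%, 6.07% and 10.8% of all genes. In syngeneic recipients 4 of the 7 were higher in CD8 cells, where 12% of all genes were called: Ctla2a (3.80 ± 0.38), Ctla2b (3.65 ± 0.44), Serpinb9 (1.02 ± 0.28) and Serpinb6b (0.97 ± 0.25). Without JL019-2 only the Ctla2 genes were, beside 9.55% of all genes, at 4.09 and 4.23, while Serpinb9 had 0.60 and Serpinb6b 0.80 (adjusted p = 0.15 and 0.058, limma). Leaving out CD8 syngeneic JL027 also ended the Serpinb9 and Serpinb6b calls (0.89 and 0.81), as did a fit of only the 2 groups (adjusted p = 0.30 and 0.23, limma), and quantile normalisation ended that of Serpinb9 (0.80).

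In allogeneic recipients 5 of the 7 genes differed between the cell types, where 6.15% of all genes did. Ctla2b (1.5 ± 0.38), Ctla2a (1.43 ± 0.32) and Serpinb9 (0.92 ± 0.24) were higher in CD8 cells, and Serpinb6b had 0.65 ± 0.21 (adjusted p = 0.073, limma; 0.011 with the block by shared number and 0.017 when only the 2 groups were fitted). Serpina3f was lower, by a log2 change of -1.74 ± 0.22 (adjusted p = 5.3e-06, limma), and so was Serpina3g, by -0.63 ± 0.18 (adjusted p = 0.033, limma), although the CD8 library JL027-1 at 13321 reached into the CD4 range. The Serpina3g call was lost without CD4 JL027-1, JL027-2 or JL019-1 or CD8 JL027-2, JL019-1 or JL019-2 (-0.65 to -0.54, adjusted p = 0.070 to 0.13, limma) and under median centring (-0.60, adjusted p = 0.12, limma). The Serpinb9 call was lost without CD8 JL027-1, CD4 JL019-1 or CD4 JL019-2 (0.74, 0.89 and 0.85), and the Ctla2b call without CD8 JL027-1 or CD4 JL027-2 (1.41 and 1.38). In Treg-treated recipients 6 of the 7 differed, where 9.61% of all genes did. Here Serpina3f (-2.46 ± 0.22) and Serpina3g (-1.38 ± 0.18) were lower in CD8 cells, and Ctla2b (1.74 ± 0.38), Ctla2a (1.34 ± 0.32), Serpinb9 (1.09 ± 0.24) and Serpinb6b (0.81 ± 0.21) higher. The Serpinb6b call was lost without CD4 Treg-treated JL027-2 (0.74, adjusted p = 0.058, limma) and under median centring (0.71, adjusted p = 0.090, limma). When only the 2 groups were fitted, Serpinb6b, Ctla2a and Ctla2b were not called (adjusted p = 0.11, 0.11 and 0.054, limma).

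**Figure D3:**
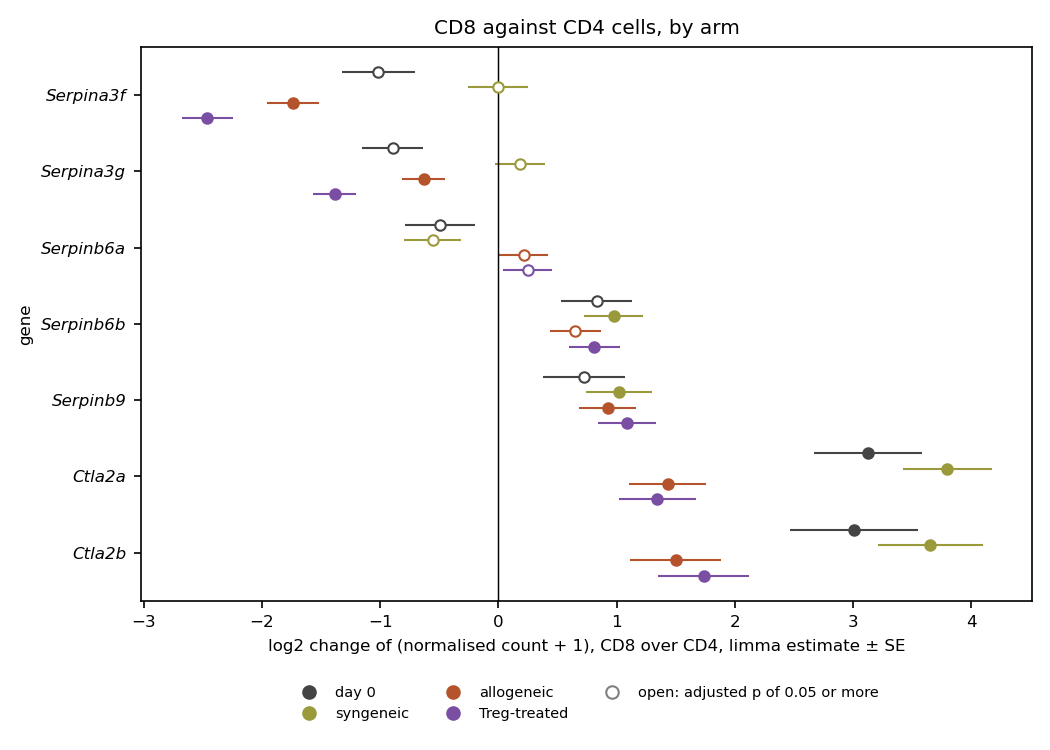
Log2 changes of CD8 over CD4 cells with their SE (limma) in each of the 4 arms, for the 7 genes; open symbols were not called. The Ctla2 genes lie to the right of 0 in every arm, and Serpinb6a is not called in any arm. Serpina3f and Serpina3g lie to the left in the allogeneic and Treg-treated arms and, as open symbols, at day 0.

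In the Treg libraries Serpina3g reached its highest values of the series, and Serpina3f, Serpinb9 and Serpinb6b also rose after transfer. Serpina3g was 4856 and 5029 in the day 0 Treg libraries and 48258, 48512 and 48085 in those from Treg-treated recipients, an increase of 3.29 ± 0.24 on the log2 scale (adjusted p = 1.8e-10, limma) or 9.77-fold. Serpina3f went from 348 and 256 to 5619, 4970 and 5381 (4.15 ± 0.28, adjusted p = 8.8e-11, limma). The later libraries were close to each other and far above day 0 for both genes. In the same libraries 3 of 6 erythroid markers were called higher (median 4.72), and of 5 NK markers 3 were lower and 1 higher (median -3.50), and their part was not tested. From day 0 to the later time 5 of the 7 genes were called, where 13.3% of all genes were, and the others that rose were Serpinb9 (3.22 ± 0.32) and Serpinb6b (3.0 ± 0.28). Serpinb6a fell, from 1021 and 1105 to 470, 622 and 623, by 0.91 (SE 0.27, adjusted p = 0.024, limma), a call lost without Treg day 0 JL019 or JL027 or without the later Treg library JL027 (log2 changes of -0.96, -0.85 and -0.77) and under median centring (-0.92, adjusted p = 0.066, limma). With the level covariate it was -1.42 and still called. Ctla2a (0.29 ± 0.42) and Ctla2b (0.52 ± 0.50) were not called.

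Already before transfer, Serpina3g was higher in Treg than in CD4 libraries, which had 700 and 909, by 2.63 ± 0.26 on the log2 scale (adjusted p = 1.5e-07, limma). Serpina3f was the other of 2 genes called, where 3.89% of all genes were, at 1.07 ± 0.31 (adjusted p = 0.048, limma), and it lost the call without any 1 of the 4 libraries: the change was 0.85 without Treg JL019, 1.30 without Treg JL027, 0.96 without CD4 JL019 and 1.19 without CD4 JL027. The call was also lost under median centring and quantile normalisation (1.09 and 1.02). In Treg-treated recipients 5 of the 7 genes differed between Treg and CD4 cells, where 30% of all genes did. Of the 10 myeloid markers 5 were lower and 1 higher in Treg here, with sums of 2156 to 7383 against 24270 to 89087, and their part was not tested. Serpina3g was the gene that was higher, by 1.58 ± 0.20 (adjusted p = 2.1e-06, limma) or 2.99-fold. Lower were Ctla2b (-1.11 ± 0.41), Serpinb6b (-1.10 ± 0.23), Serpinb6a (-1.06 ± 0.23) and Serpinb9 (-0.88 ± 0.26). The Ctla2b call was lost without CD4 JL027-2, JL019-1 or JL019-2 or Treg JL027 or JL019-2 (log2 changes of -1.11 to -0.86), when only the 2 groups were fitted (adjusted p = 0.060, limma) and with the level covariate (-0.35, adjusted p = 0.44, limma). The Serpinb9 call was lost without CD4 JL019-1 (-0.75) or Treg JL027 (-0.73) and under quantile normalisation (-0.48, adjusted p = 0.15, limma). Serpinb6a had -0.63 with the level covariate and stayed called. Serpina3f had 0.22 ± 0.24 and was not called. Ctla2a, at -0.88 ± 0.35 (adjusted p = 0.058), was called without CD4 JL027-1 (-1.06) and under median centring, quantile normalisation or the prefix block (-1.09, -0.95 and -0.93). Against CD8 cells of the same recipients all 7 genes differed, where 36.2% of all genes did: Serpina3g (2.96 ± 0.20) and Serpina3f (2.68 ± 0.24) were higher in Treg, and the other 5 lower, from -1.30 ± 0.23 for Serpinb6a to -2.85 ± 0.41 for Ctla2b. Myeloid sums were 2156 to 7383 in these Treg and 11869 to 32181 in these CD8 libraries, and NK sums 231 to 408 and 1188 to 1482. Erythroid sums overlapped (1644 to 50088 and 2537 to 19219), and the part of these cells was not tested. The level covariate moved Ctla2b to -1.89, Ctla2a from -2.22 to -1.38 and Serpinb6a to -0.76, all still called. The median over all genes in these last 2 comparisons was 0.14.

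Ordered by group mean, Serpina3g ran from 432 in CD8 cells at day 0 to 48285 in Treg of Treg-treated recipients, a 112-fold span, and Serpina3f over the same end points from 70.3 to 5323, 75.8-fold. Serpinb6b ran from 275 in CD4 cells at day 0 to 17116 in CD8 allogeneic cells (62.3-fold), and Serpinb9 from 718 in CD4 cells at day 0 to 41569 in CD8 Treg-treated cells (57.9-fold). Ctla2a and Ctla2b both ran from CD4 cells at day 0 to CD8 syngeneic cells (35.7-fold and 36.4-fold). Serpinb6a spanned 2.75-fold, from 572 to 1572, and each group overlapped with the next in the order. For Serpinb9 the neighbours in the order that overlapped were the Treg and CD8 day 0 groups, the CD8 day 0 and CD4 syngeneic groups, and the allogeneic with the Treg-treated arm in either cell type.

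Within each library, the ratio of 2 neighbouring relatives shows whether they changed by the same factor. The mean ratio of Serpina3g to Serpina3f was 3.31 ± 0.31 (SD, n = 4) in CD4 allogeneic, 3.55 ± 0.22 (SD, n = 4) in CD4 Treg-treated, 7.11 ± 0.50 (SD, n = 4) in CD8 allogeneic and 7.55 ± 1.13 (SD, n = 4) in CD8 Treg-treated libraries. The lowest of the CD8 values in these arms, 6.27, was above the highest of the CD4 values, 3.71. In 12 two-sided exact permutation tests on ratios, the smallest p that 4 against 4 libraries allow is 0.0286, which both CD8 to CD4 comparisons of this ratio reached (adjusted p = 0.11 over the 12). Serpinb9 over Serpinb6b had group means from 1.85 in CD4 allogeneic to 2.77 in CD8 Treg-treated libraries, and its CD8 to CD4 comparison in the allogeneic arm, 2.24 ± 0.18 against 1.85 ± 0.16 (SD, n = 4 each), also reached the exact permutation p of 0.0286 (adjusted p = 0.11). Ctla2a over Ctla2b was 7.18 ± 0.69 (SD, n = 2) in CD8 cells at day 0, 6.26 ± 0.32 (SD, n = 3) in syngeneic and 3.56 ± 0.12 (SD, n = 4) in allogeneic CD8 cells. No ratio test passed after adjustment.

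**Figure D4:**
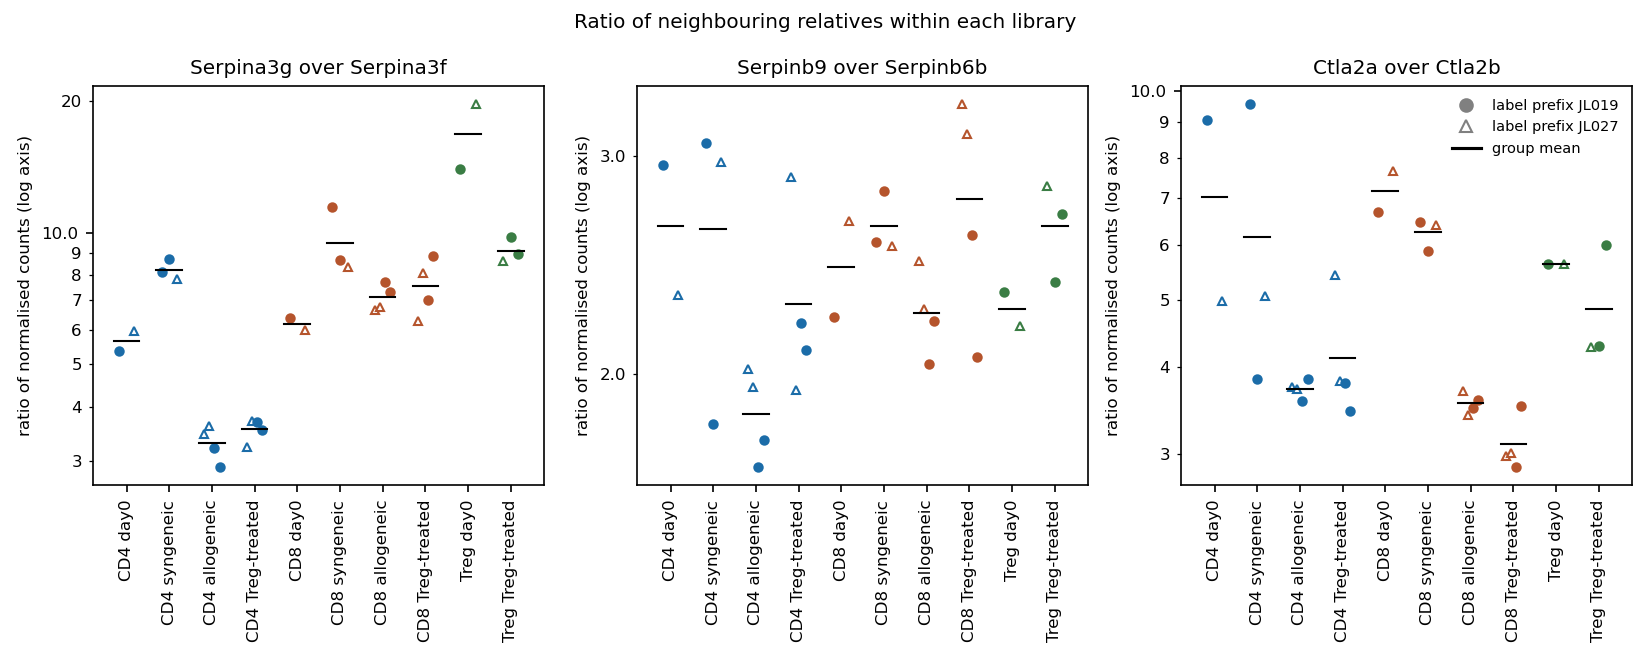
Ratio of normalised counts (log axis) of Serpina3g over Serpina3f, Serpinb9 over Serpinb6b and Ctla2a over Ctla2b in each library of the 10 groups, with lines for the group means and symbols for the label prefix. The Serpina3g ratio is lowest in the CD4 allogeneic and Treg-treated libraries (2.91 to 3.71) and highest in day 0 Treg (13.9 and 19.7).

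Over all 31 libraries, Serpinb6b and Serpinb9 had a Pearson correlation of 0.99 on the log2 scale, Ctla2a and Ctla2b of 0.96, and Serpina3f and Serpina3g of 0.95. These are descriptions over libraries that share the 10 groups, and any sharing of reads within a pair was not tested. Serpina3g and Ctla2a had -0.0086. Among 9907 genes with a mean of at least 100 that are not among the 7, predicted genes, receptor chains and ribosomal and mitochondrial genes left out, the pattern most like that of Serpinb9 was that of Rom1 (0.96), of Serpinb6b that of Serpinb1b (0.96), of Serpina3f that of Tnip3 (0.95) and of Serpina3g that of Gpr107 (0.96). Serpinb6a was closest to Irak3 (0.86). Outside the 7, both Ctla2 genes were closest to Wdr95 (0.93 for Ctla2a and 0.92 for Ctla2b), and the second closest to Ctla2a was Ctsw (0.91), the cathepsin of cytotoxic lymphocytes.

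The proteases these inhibitors act on changed as well. Of 12 genes listed for granzymes, perforin and their carrier serglycin, 10 were in the table. Between allogeneic and syngeneic CD8 cells 8 of the 10 rose and 1 fell, with a median log2 change of 4.12 beside 0.017 over all genes, and in CD4 cells 5 of 10 rose, with a median of 1.28. The shares of all genes called in the 2 comparisons were 21.1% and 14.6%. Without CD4 syngeneic JL019-2, an alternative chosen for these lists after seeing the data, 5 of the 10 rose in CD4 cells as well (median 1.46, beside 10.9% of all genes called), with the call of Prf1 lost (0.82) and that of Gzmm gained (1.76). Gzmb, the target of Serpinb9, rose from a mean of 2881 to 29473 in CD4 (3.41 ± 0.27) and from 16581 to 153535 in CD8 cells (3.24 ± 0.27). Gzma, the target of Serpinb6b, rose by 4.16 ± 0.50 and 5.40 ± 0.50. Without JL019-2 the CD4 changes were 3.31 for Gzmb and 5.22 for Gzma. Gzmk had the lowest p of the CD8 rises (5.98 ± 0.31, from 175 to 10560). Gzmm was the one that fell in CD8 cells, from 14407 to 663. In Treg between day 0 and later, 6 of 10 rose, beside 13.3% of all genes called, and Gzmb went from 292 to 115348 (8.69 ± 0.32), which was above its level in CD4 cells of the same arm (1.71 ± 0.27) and below that in CD8 cells (-0.74 ± 0.27, adjusted p = 0.033, limma). With Treg treatment, 2 of the 10 rose in CD4 cells, near the 22.2% of all genes called there and so no result about granzymes: Gzmc by 2.53 ± 0.33 and Gzme, which is listed at 0 in all 4 allogeneic libraries and had a mean of 21.6 in the Treg-treated ones. None of the 10 was called in CD8 cells by limma. Gzmb, at means of 35382 in CD4 and 196907 in CD8 Treg-treated cells, was not called in either (0.28 ± 0.25 and 0.35 ± 0.25).

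Of 14 cathepsin genes, legumain included, 13 were in the table. In CD4 cells 6 rose and 3 fell between syngeneic and allogeneic recipients, and in CD8 cells 4 rose and 4 fell. These were again beside 14.6% and 21.1% of all genes. The list medians were -0.12 in CD4 and -0.39 in CD8 cells. Without JL019-2, 6 rose and 2 fell in CD4 cells, the call of Ctss was lost (-0.68, adjusted p = 0.078, limma), and the median turned to 0.55. Ctsw rose in CD4 cells (2.34 ± 0.28, and 2.47 without JL019-2) and fell in CD8 cells by 0.97 (SE 0.28). Ctsc, which activates granzymes, rose in CD8 cells (0.94 ± 0.20). In Treg 5 of the 13 rose from day 0, beside 13.3% of all genes called, among them Lgmn (2.33 ± 0.34), Ctsa (1.47 ± 0.22) and Ctsc (1.52 ± 0.24), and Ctse fell by 0.60 (SE 0.18). With Treg treatment 3 of the 13 were called in CD4 cells, near the 22.2% of all genes: Ctss rose (0.76 ± 0.24) and Ctsd and Ctse fell by 0.41 and 0.40. None was called in CD8 cells by limma. Between allogeneic and syngeneic recipients, Ctsl, which Ctla2a inhibits, had -0.99 ± 0.45 in CD8 cells and was not called (adjusted p = 0.12, limma). The fall of Ctsh in CD4 cells, from a mean of 3306 to 35.5, rested on a syngeneic group that ranged from 233 to 9419 and includes JL019-2. Its log2 change was -4.60 with that library and -2.86 without it, both called.

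Among 21 other clade B serpins, 6 were in the table. With the foreign host 2 of them rose and 1 fell in CD4 cells, and 3 rose and 1 fell in CD8 cells, beside the same 14.6% and 21.1% of all genes. The CD4 counts were the same without JL019-2. Serpinb9b, a relative of Serpinb9, was 51.1 to 102 in CD4 syngeneic and 2532 to 2998 in CD4 allogeneic libraries, and 499 to 1262 in CD4 Treg-treated libraries. It rose with the foreign host (5.26 ± 0.54 in CD4 and 7.61 ± 0.54 in CD8 cells) and fell with Treg treatment in CD4 cells by 1.87 (SE 0.50, adjusted p = 0.016, limma). It was the 1 of the 6 called there, no more than the 22.2% of all genes. In CD8 cells the Treg-treated change was -1.63 ± 0.50 (adjusted p = 0.23, limma). The other that rose in both was Serpinb1b, by 5.15 ± 0.56 in CD4 and 7.21 ± 0.56 in CD8 cells, and Serpinb10 fell in both. Without JL019-2 the CD4 changes were 5.52 for Serpinb9b, 4.35 for Serpinb1b and -4.33 for Serpinb10, in place of -5.99. In Treg 2 of the 6 rose from day 0, where 13.3% of all genes were called, Serpinb1b by 3.63 ± 0.67 and Serpinb9b by 3.03 ± 0.65. Of 9 other Serpina3 genes only Serpina3h was in the table, with a mean of 12.8 in CD4 allogeneic against 2.62 in CD4 syngeneic cells (2.21 ± 0.58, adjusted p = 0.0088, limma), a call lost without JL019-2 (1.47, adjusted p = 0.13, limma). Of 8 cystatins and similar inhibitors 5 were in the table. With the foreign host 1 of the 5 was called in CD4 and 2 in CD8 cells, beside 14.6% and 21.1% of all genes, with Treg treatment 3 in CD4 cells, beside 22.2%, and in Treg from day 0, 1, beside 13.3%. Cst7, an inhibitor of cathepsin C, rose in CD4 cells with the foreign host (1.16 ± 0.27, and 1.41 without JL019-2) and with Treg treatment (1.04 ± 0.25), and in Treg from day 0 (1.25 ± 0.33). With Treg treatment Cstb (0.85 ± 0.30) rose and Cast, the calpain inhibitor, fell by 1.08 (SE 0.25) in CD4 cells, and with the foreign host Cast (1.06 ± 0.27) and Cst6 (1.56 ± 0.53) rose in CD8 cells.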

How the data were processed

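Bulk RNA libraries of sorted mouse T cells were made with SMARTer v4 cDNA and Nextera XT, per the labels' protocols. The authors used FastQC 0.11.7, kallisto and DESeq2 and the GRCm38 (mm10) build, per the submitters' processing notes. The deposited table holds a signal per gene, counts that the authors scaled between libraries (per the file headers, a DESeq2 results table, whose base mean is the mean of the 31 library columns). Since the values have decimals and no single step per read, the depth of each library is unknown. The authors' own fold change and p-value columns name no groups and, like the T-cell receptor tables, were not used here.

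Groups follow the sample titles. limma 3.58.1 in R 4.3.3 was fitted to log2(value + 1) with a group-means model over 31 libraries, robust variances with a trend, and adjustment by Benjamini-Hochberg over 16741 genes. A minimum mean of 1 removed no gene. The count test planned for whole counts was not used, since the unit is normalised. The fit was also run on simulated data, whose outcome is not given here, and no result rests on it. All 7 genes are named in all groups. Of 5 lists of related genes at most 3 called per direction and comparison are named, those with the lowest p. Gzma in CD8 cells, Ctsl, Gzmb and Serpinb9b in further comparisons, and genes named because leaving out CD4 syngeneic JL019-2 changed their call fall outside this rule and were chosen after their values were seen. The 3 other genes most like each of the 7 were ranked by Pearson correlation, and the first, for Ctla2a also the second, is named. The genes and lists were chosen with earlier results of these data known. Promoter windows of 300 bases are from RefSeq (GRCm38.p6, 7 of 7 genes matched by symbol) and were aligned with Biopython 1.88. Other steps used pandas 2.3.3, numpy 2.4.6 and scipy 1.17.1 in Python 3.11.15, and figures matplotlib 3.10.9. Alternatives were other filters, pseudocount, normalisations, models, replicate blocks and leaving out each library.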

Additional observations from a re-analysis of the deposited data

Results flagged for a closer look

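In groups of 4 libraries, 28 of which were examined (7 genes in 4 groups), a library stood far from the other 3 in 3 cases. Chance gives about 1 in 20 for independent groups. These groups share libraries and hold correlated genes, so that rate cannot be set beside the 3 cases. Serpinb6b was 22395 in CD8 allogeneic replicate JL027-1, above 14817 to 15988 in the others. Serpinb9 was 46269 in CD8 Treg-treated replicate JL027-2, above 39702 to 40593. Ctla2a was 8431 in CD8 Treg-treated replicate JL019-2, above 2214 to 3122, and Ctla2b in the same library was 2391, above 742 to 1037.

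The response to the foreign host differed between CD8 and CD4 cells for 3 genes by the test of the difference (limma). The log2 difference, CD8 response minus CD4 response, was -1.73 for Serpina3f, -2.36 for Ctla2a and -2.15 for Ctla2b.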

How the results depend on the processing

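Of the 85 called changes of single genes none changed sign under quantile normalisation, and of the 55 others 6 did there and 6 under median centring. Centring moved the median change of all genes by 0.248 in CD4 cells between Treg-treated and allogeneic recipients and by 0.289 between Treg-treated and syngeneic, by 0.114 to 0.119 in 3 CD8 comparisons, by -0.212 and -0.112 for Treg against CD4 and CD8 cells in Treg-treated recipients, and by -0.134 for the difference in Treg effect, and quantile normalisation by -0.127 to 0.119. The numbers below are how many of the 7 genes were called, with the share of all genes called in the same fit in brackets where given. Median centring gave 3 in place of 5 for CD4 syngeneic against day 0 (12.1%) and 1 in place of 2 for Treg against CD4 at day 0 (3.63%). Quantile normalisation gave 1 for CD4 Treg-treated against allogeneic (23.3%) and 4 in place of 2 for CD8 against CD4 at day 0 (4.25%). The covariate of library level, added after seeing the data, gave 3 (3.4%) and 1 (0.299%) for Treg-treated against allogeneic in CD4 and CD8 cells. At day 0 it gave 5 in place of 2 for Treg against CD4 (7.6% in place of 3.89%) and for CD8 against CD4 (6.07% in place of 3.32%). For the CD8 against CD4 response to the foreign host it gave 5 in place of 3 (9.03% in place of 4.65%). With this covariate Serpinb6a turned to -0.54 for CD4 syngeneic against day 0 and was called. Fitting only the groups compared gave 0 for CD4 syngeneic against day 0 (1.4%). At day 0 it gave 5 for Treg against CD4 (12.4%) and for CD8 against CD4 (10.8%). For CD8 against CD4 it gave 2 in syngeneic (1.68%) and 3 in Treg-treated recipients (4.27%). The cause of these differences was not tested. Leaving out 1 library gave 2 to 5 for CD4 syngeneic against day 0, 1 for Treg against CD4 at day 0, 3 to 6 for Treg against CD4 in Treg-treated recipients, 2 to 4 for CD8 against CD4 in syngeneic and 3 to 4 in allogeneic recipients, and 2 to 4 for the difference in response. The other counts stayed within 1.5 times. With a lone library left in a group, that library is assumed to vary like the rest.

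Titles of different cell types in one arm share replicate numbers, but the labels do not say that a number marks one animal. Deviations of same-numbered libraries had a correlation of -0.11 to 0.43 (median 0.14) over 15 pairs, 9 of them over 0.1. That bar cannot decide whether the numbers pair libraries, and the planned fit without a block was kept. As a hint from the data, 18 of 30 checks of a library against a partner cell type correlated best with the same number. Each check set the same number against several others. Whether the numbers pair libraries is not known. As a replicate block, the label prefix gave 4 and the shared number 5 in place of 2 called genes for CD8 against CD4 at day 0, beside 3.56% and 3.86% of all genes. No call was lost under either block, and both added Serpina3g for the difference in response. The shared number also added Serpinb6b for CD8 against CD4 in allogeneic recipients, and the prefix added Ctla2a for CD4 Treg-treated against syngeneic and for Treg against CD4 in Treg-treated recipients, and Serpina3f for CD4 syngeneic against day 0. With the depth unknown, differences of low genes such as Ctla2b at day 0 have a counting error that could not be stated.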
